A study of Mus musculus with 11 samples.

Results

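The myostatin and activin pathway was followed in mouse quadriceps through 10 genes: the ligand genes Mstn and Inhbb, the antagonist genes Fst and Fstl3, the receptor genes Acvr2a, Acvr2b and Acvr1b, the signal transducers Smad2 and Smad3, and the inhibitory Smad7. The genes were matched by current or former symbol to the annotation of the Illumina MouseWG-6 v2.0 array, which measures transcripts with short probes. Of the 45281 probes, 13 carried the name of 9 members, and no named probe was found for Inhbb. Of these, 9 probes of 6 members were detected well enough to be tested, among 10134 genes tested in all.

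The mice were CD2F1 females of 5 to 6 weeks. The 4 control mice (labelled normal) had been injected with PBS and carried no tumor, and the others had received C26 cells, a mouse colon adenocarcinoma line, under the skin. The 3 mice with moderate cachexia had lost 10% of their body weight and were killed on day 19 after injection, and the 4 mice with severe cachexia had lost 15% and were killed on day 24. Weight loss and time with the tumor therefore rose together and cannot be told apart in these groups. One array was hybridized per mouse, and mice are named here by the number in their data column.

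Myostatin and the activins are secreted ligands of the TGF-beta family. They bind activin type II receptors, which activate a type I receptor, which in turn phosphorylates SMAD2 and SMAD3, and these then enter the nucleus with SMAD4 to regulate transcription. Follistatin and related proteins bind the ligands and keep them from their receptors. In skeletal muscle the pathway restrains fiber growth, and animals that lack myostatin have enlarged muscles.

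The 250 bases before the annotated start are shown for Acvr1b and Smad3, the members whose transcripts changed, and for Mstn, the ligand gene that gives the pathway its name. The sequences are from RefSeq (GRCm38.p6), 5′ to 3′ on the strand of the gene, which is the plus strand for Acvr1b (chr15:101173822-101174071) and Mstn (chr1:53061390-53061639) and the minus strand for Smad3 (chr9:63757995-63758244). Capitals mark matches on either strand to the E-box CANNTG, the SMAD core CAGAC or the TATA box TATAAA.
Acvr1b: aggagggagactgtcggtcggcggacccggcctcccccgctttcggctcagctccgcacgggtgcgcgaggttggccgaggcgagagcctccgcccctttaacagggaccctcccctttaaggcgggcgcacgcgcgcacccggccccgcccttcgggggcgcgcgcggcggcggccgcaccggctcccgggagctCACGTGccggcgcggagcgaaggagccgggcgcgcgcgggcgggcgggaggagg
Smad3: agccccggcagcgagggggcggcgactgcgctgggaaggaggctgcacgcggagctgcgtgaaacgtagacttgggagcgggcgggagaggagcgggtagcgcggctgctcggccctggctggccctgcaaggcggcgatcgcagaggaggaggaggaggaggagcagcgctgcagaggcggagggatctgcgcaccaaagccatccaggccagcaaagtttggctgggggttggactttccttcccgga
Mstn: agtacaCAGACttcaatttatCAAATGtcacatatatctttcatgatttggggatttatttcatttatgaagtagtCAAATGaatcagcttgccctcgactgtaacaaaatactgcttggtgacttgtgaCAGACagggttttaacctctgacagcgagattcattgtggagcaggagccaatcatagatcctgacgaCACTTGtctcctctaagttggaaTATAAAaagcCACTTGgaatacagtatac

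The Acvr1b window held 1 E-box, at position -54 counted from the start, and no SMAD core or TATA box. The Smad3 window matched none of these motifs. Both windows were rich in G and C (78.8% for Acvr1b and 69.2% for Smad3, against a median of 52.4% over all windows). The Mstn window differed from both, with 38.4% G and C, 4 E-boxes, 2 SMAD cores and a TATA box at position -29. Among all 32851 windows of this length, 66.2% held an E-box, 42.2% a SMAD core and 12.4% a TATA box. A STAT site (TTCNNNGAA, present in 7.0% of windows) and a FOXO site (GTAAACA, present in 3.2%) were also searched on both strands, and no match to either lay in the windows of the 7 members that had one in the table.

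Across the arrays, between 41.1% and 44.2% of probes were detected, that is, had a detection p-value under 0.01. The tissue label was checked against 13 skeletal muscle fiber markers, of which 12 were tested and all 12 were detected on 11 of 11 arrays. Summed signals of these 12 genes were 248200 to 255500 in controls, 242800 to 252100 in moderate and 230400 to 249000 in severe cachexia. Severe mouse 11 stood somewhat apart from its group, with a mean correlation to the other severe mice of 0.969 (0.977 to 0.984 for the other 3). The median log2 difference of its macrophage markers from the control mean was 1.65, against 0.46 to 0.83 in the other severe mice. Adipocyte markers stood at 0.20 in this mouse against -1.67 to -1.17 in the others, and fibroblast markers at 0.01 against -1.67 to -0.77. Its summed red blood cell signal was 34140, against 13600 to 26480. Leaving this mouse out changed the call of no member.

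Differences between groups were tested with limma, with p-values adjusted by the method of Benjamini and Hochberg over all 10134 genes, and a gene was called at an adjusted p under 0.05. Levels are log2 normalized signals. Probes differ in how brightly they report, so levels are compared between mice and not between genes. The mice are separate animals, but a bulk array cannot tell fewer cells of a type from less RNA per cell.

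In moderate cachexia, the transcript of the type I receptor Acvr1b was higher and that of the signal transducer Smad3 was lower than in control muscle. Of the 6 members tested, 1 was called higher, where 18.9% of all genes tested were, and 1 was called lower, where 22.2% were. The share of members that changed was thus close to that of genes at large. In severe cachexia limma called 0 of the 6, while 15.6% of all genes were called higher and 17.8% lower. Read from the brightest probe of each gene, 0 members there had an unadjusted p under 0.05, and the methods' t-test called 0 as well. Between the stages, Acvr1b was lower in severe than in moderate cachexia (3.81% of all genes were), and no member was called higher (3.17% were). Both stages were compared with the same 4 control mice.

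**Figure D1:**
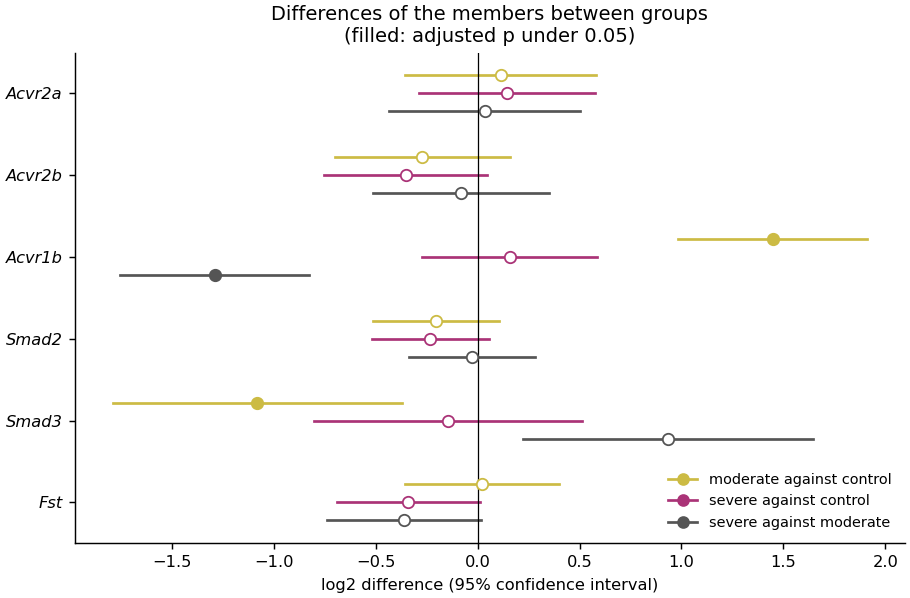
Log2 differences of the 6 tested members between groups, with 95% confidence intervals from limma; filled points have an adjusted p under 0.05. Acvr1b lies at 1.45 in moderate against control and at -1.29 in severe against moderate, Smad3 lies at -1.08 in moderate against control, and the other 15 points are open.

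Mstn encodes myostatin, the ligand made by muscle fibers. Its only probe was detected on 0 of 11 arrays. The deposited signals, from which background had been subtracted, lay between -5.41 and 2.38 in controls, between -1.25 and 2.36 in moderate and between -2.31 and 0.46 in severe cachexia, with detection p-values from 0.249 to 0.888. The lowest signal that counted as detected was 11.9 to 15.0, depending on the array. The ranges of the groups overlapped below that limit, so no level or fold difference of Mstn could be given for any group.

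Inhbb encodes the beta B subunit of activins and inhibin and had no named probe, and it was not analysed here. Fstl3, a secreted relative of follistatin, was detected on 0 of 11 arrays. Its signals were 4.35 to 10.4 in controls, 7.02 to 9.50 in moderate and 3.14 to 12.1 in severe cachexia (detection p-values 0.0259 to 0.252). Smad7 encodes the inhibitory SMAD that targets activated type I receptors, and its probe was likewise detected on 0 of 11 arrays. Its signals were -7.22 to 1.38 in controls, -6.01 to -1.90 in moderate and -8.44 to -2.06 in severe cachexia. For both genes the groups overlapped below the detection limit.

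**Figure D2:**
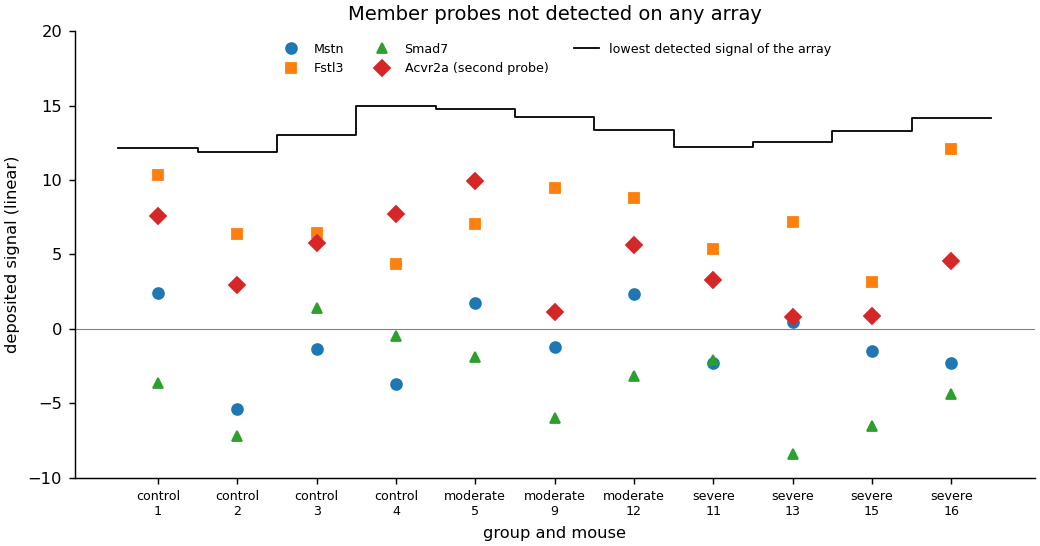
Deposited linear signals, after background subtraction, of the 4 member probes detected on no array, by group and mouse; the stepped line is the lowest detected signal of each array. All points lie below the line, from -8.44 for Smad7 to 12.1 for Fstl3.

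Fst encodes follistatin, the secreted antagonist of activins and myostatin. In control mice 1 to 4 its level was 6.05, 6.14, 6.27 and 6.53. In moderate mice 5, 9 and 12 it was 6.15, 6.65 and 6.01, and in severe mice 11, 13, 15 and 16 it was 5.98, 5.68, 6.06 and 5.92. The moderate mice spanned the control range, while the severe mice lay low, with only mouse 15 reaching above the lowest control. The difference was 0.02 ± 0.18 (SE) in moderate cachexia (95% confidence interval -0.36 to 0.40, adjusted p = 0.932) and -0.34 ± 0.16 in severe cachexia (-0.69 to 0.01, adjusted p = 0.123). Neither passed the test, and the interval for severe cachexia extends to values well below the control level.

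Acvr2a encodes one of the type II receptors that bind activins and myostatin. Its detected probe read 6.71, 6.81, 6.42 and 6.74 in control mice 1 to 4, and 7.12, 6.91 and 6.31 in moderate mice 5, 9 and 12. In severe mice 11, 13, 15 and 16 it read 6.32, 7.10, 6.99 and 6.86. Both cachectic groups held mice above and below the whole control range. The differences from control were 0.11 ± 0.22 (SE) in moderate (95% confidence interval -0.36 to 0.58, adjusted p = 0.707) and 0.15 ± 0.20 in severe cachexia (-0.29 to 0.58, adjusted p = 0.605). A second Acvr2a probe was detected on 0 of 11 arrays.

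Acvr2b encodes the other activin type II receptor, a main binding partner of myostatin. Its levels were 10.09, 9.54, 9.89 and 10.16 in control mice 1 to 4, and 9.35, 9.85 and 9.74 in moderate mice 5, 9 and 12. In severe mice 11, 13, 15 and 16 they were 9.80, 9.09, 9.80 and 9.57. Both cachectic groups overlapped the controls, with moderate mouse 5 and severe mouse 13 below the lowest control. The difference was -0.27 ± 0.20 (SE) in moderate (95% confidence interval -0.70 to 0.16, adjusted p = 0.299) and -0.35 ± 0.19 in severe cachexia (-0.75 to 0.04, adjusted p = 0.156). Neither difference passed the test.

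Acvr1b encodes the type I receptor that passes the activin signal to SMAD2 and SMAD3. Its brightest probe read 6.30, 6.17, 6.22 and 6.84 in control mice 1 to 4 and 7.73, 7.52 and 8.23 in moderate mice 5, 9 and 12. In severe mice 11, 13, 15 and 16 it read 6.84, 6.27, 6.69 and 6.36. Every moderate mouse lay above every control mouse, as was so for 22.8% of all genes tested, and above every severe mouse. The share of genes so placed against the severe mice was not counted. Control and severe mice overlapped. The group means were 6.38 ± 0.31 (SD, n = 4) in control, 7.83 ± 0.37 (SD, n = 3) in moderate and 6.54 ± 0.27 (SD, n = 4) in severe cachexia.

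Acvr1b was 2.73-fold higher in moderate cachexia than in control muscle, a log2 difference of 1.45 ± 0.21 (SE; 95% confidence interval 0.99 to 1.91; adjusted p = 0.000375). In severe cachexia the difference from control was 0.16 ± 0.20 (-0.27 to 0.58, adjusted p = 0.571). The stages themselves differed, Acvr1b being 2.45-fold lower in severe than in moderate cachexia (-1.29 ± 0.21, adjusted p = 0.0052). The rise held with each mouse left out in turn (1.24 to 1.60), as did the difference between the stages (-1.45 to -1.09). The methods' t-test after Benjamini-Hochberg adjustment gave the same difference between the stages but did not call it (adjusted p = 0.114), and it called 7 of the 10134 genes in that comparison.

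Both other Acvr1b probes were higher in moderate cachexia too, when all 18837 detected probes were tested. For ILMN_2746036 the levels were 5.60, 5.31, 5.41 and 5.40 in control mice 1 to 4, 6.18, 5.97 and 6.66 in moderate mice 5, 9 and 12, and 5.53, 4.93, 5.60 and 5.19 in severe mice 11, 13, 15 and 16. Again every moderate mouse lay above every control and severe mouse, without a share counted over all probes. The difference from control was 0.84 ± 0.19 (SE, adjusted p = 0.00422). For the dimmest probe, ILMN_2740103, moderate mice read 6.10, 5.32 and 6.27 and control mice 5.07, 5.06, 5.13 and 5.76, so that moderate mouse 9 lay below control mouse 4. The difference was 0.64 ± 0.22 (SE, adjusted p = 0.0328). In severe cachexia this probe was detected on 1 of 4 arrays, at 4.93 in mouse 11, and was not above the detection limit in the other 3. Its difference from control there was -0.43 ± 0.20 (SE, unadjusted p = 0.0493, adjusted p = 0.117).

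Of the tested signal transducers, Smad3 was called lower in moderate cachexia and Smad2 was not called. Their differences were not compared with each other. Smad3 encodes one of the SMADs that the activated type I receptor phosphorylates. Its brightest probe read 10.65, 10.12, 10.44 and 10.75 in control mice 1 to 4 and 8.98, 9.93 and 9.32 in moderate mice 5, 9 and 12. In severe mice 11, 13, 15 and 16 it read 10.99, 9.35, 10.76 and 10.28. Every moderate mouse lay below every control mouse, as was so for 25.0% of all genes tested. The severe mice were split, with mouse 13 among the moderate values and the other 3 within or above the control range.

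Smad3 was 2.12-fold lower in moderate cachexia than in controls (-1.08 ± 0.33, SE; 95% confidence interval -1.79 to -0.37; adjusted p = 0.0194). In severe cachexia the difference was -0.15 ± 0.31 (-0.80 to 0.51, adjusted p = 0.74), and between the stages it was 0.93 ± 0.33 (0.22 to 1.65, adjusted p = 0.103). The stages were thus not shown to differ in Smad3, although without severe mouse 13 that difference was 1.27 and passed the test (adjusted p = 0.0138). The fall in moderate cachexia no longer passed the test without mouse 5 (-0.87, adjusted p = 0.101) or without mouse 12 (-1.04, adjusted p = 0.0612). It passed only narrowly without control mouse 1 (-1.03, adjusted p = 0.0483) or control mouse 4 (-0.99, with an adjusted p that rounds to 0.05).

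The other Smad3 probe, ILMN_2938893, read 8.22, 8.36, 8.46 and 8.45 in control mice 1 to 4 and 7.23, 7.81 and 7.50 in moderate mice 5, 9 and 12. Every moderate mouse again lay below every control mouse, without a share counted over all probes. The difference was -0.86 ± 0.30 (SE, adjusted p = 0.0345). Severe mice 11, 13, 15 and 16 read 9.05, 7.34, 8.66 and 8.30 on this probe, with mouse 13 again the lowest.

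**Figure D3:**
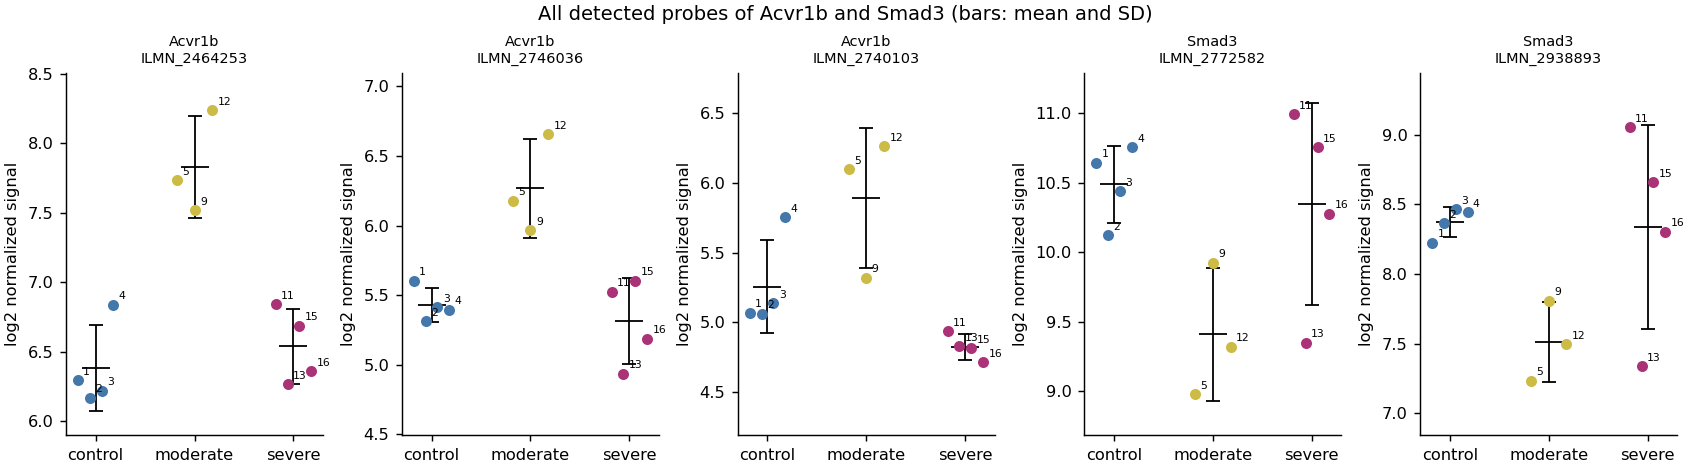
Log2 normalized signals of the 3 probes of Acvr1b and the 2 detected probes of Smad3, 1 point per numbered mouse; bars are the mean and SD of each group. The moderate mice are highest on all Acvr1b probes except that mouse 9 lies below control mouse 4 on ILMN_2740103, and they lie below all control mice on both Smad3 probes.

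Smad2 encodes the partner of SMAD3 downstream of the same receptors. Its levels were 7.46, 7.32, 7.39 and 7.41 in control mice 1 to 4 and 6.90, 7.27 and 7.39 in moderate mice 5, 9 and 12. In severe mice 11, 13, 15 and 16 they were 7.35, 7.06, 7.06 and 7.19. Severe mice 13, 15 and 16 and moderate mice 5 and 9 lay below all controls, and the other 2 cachectic mice lay within the control range. The difference was -0.21 ± 0.14 (SE) in moderate (95% confidence interval -0.52 to 0.10, adjusted p = 0.269) and -0.23 ± 0.13 in severe cachexia (-0.52 to 0.05, adjusted p = 0.192), and neither passed the test.

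**Figure D4:**
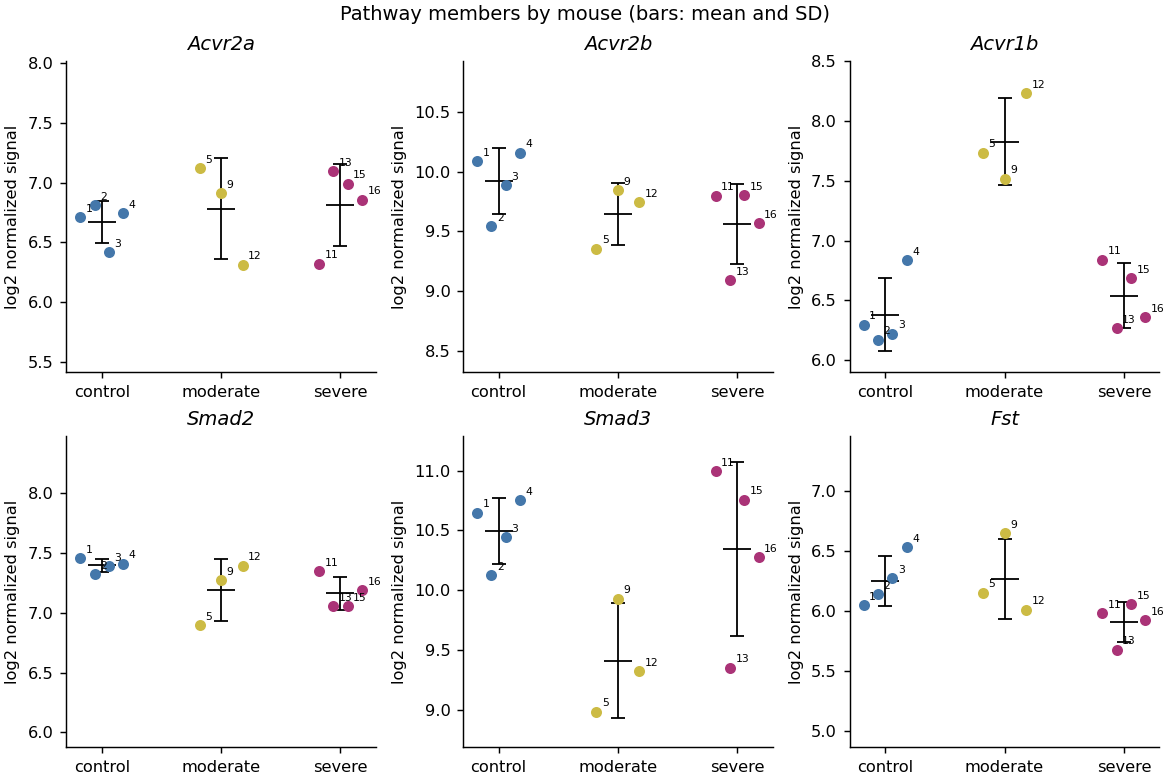
Log2 normalized signal of the 6 tested members, 1 point per mouse with its number; bars are the mean and SD of the 4 control, 3 moderate and 4 severe mice, and all panels span the same number of log2 units. The groups separate for Acvr1b (moderate mice from 7.52 to 8.23, all others at or below 6.84) and, between control and moderate mice, for Smad3.

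The genes whose levels ran most alike to Acvr1b over the 11 arrays were Cblb (Pearson r = 0.976), Uhrf2 (0.961), Pik3ip1 (0.957), Klf6 (0.949) and Usp54 (0.948). For Smad3 they were Usp46 (0.945), Rnf130 (0.941), Vamp1 (0.937), Cpeb3 (0.933) and Emc6 (0.933). These values describe arrays that fall into 3 groups and share their normalization, and each set was picked as the highest of all genes tested.

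Around these members, the wider family was read from 6 lists of genes, whose counts stand against 18.9% of all genes higher and 22.2% lower in moderate cachexia, and 15.6% higher and 17.8% lower in severe cachexia. Of 14 other TGF-beta family ligand genes listed, 13 had a named probe and 5 were detected well enough to be tested. Inhba and Gdf11 were not among the 5. Of those tested, 4 were lower in moderate and 3 in severe cachexia, and none was called higher in either. The median log2 difference from control over the 5 was -1.25 in moderate and -0.41 in severe cachexia, against -0.03 and 0.01 over all genes. Gdf1 fell in both stages, with log2 differences of -2.07 ± 0.26 (SE, adjusted p = 0.000125) in moderate and -1.48 ± 0.24 in severe cachexia (adjusted p = 0.000861). Gdf1 shares a transcript with the ceramide synthase gene Cers1, so the probe need not report the growth factor alone. Tgfb2 fell too, at -1.63 ± 0.23 (adjusted p = 0.000295) and -0.90 ± 0.22 (adjusted p = 0.00718). Gdf10 fell in moderate cachexia (-1.25 ± 0.21, adjusted p = 0.000801), stood at -0.34 ± 0.19 in severe cachexia (adjusted p = 0.185) and was higher in severe than in moderate cachexia (0.90, adjusted p = 0.0233).

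Among 7 other receptor and co-receptor genes tested, 2 were higher and 2 lower in moderate cachexia, and 2 were higher and 1 lower in severe cachexia, counts close to the shares over all genes. Tgfbr2, the type II receptor for TGF-beta, rose by 0.88 ± 0.21 (SE, adjusted p = 0.00626) in moderate and by 0.88 ± 0.20 (adjusted p = 0.00535) in severe cachexia. Tgfbr3, the co-receptor betaglycan, rose in moderate cachexia by 0.83 ± 0.17 (adjusted p = 0.00234). Acvr1c, a type I receptor found in fat cells, fell in both stages (-0.81 ± 0.26, adjusted p = 0.0253, and -0.86 ± 0.24, adjusted p = 0.0162). Adipocyte markers were lower as well, 6 of 9 in moderate and 5 of 9 in severe cachexia, with summed signals of 28250 to 35980 in controls, 18670 to 20020 in moderate and 13080 to 31340 in severe mice. Without severe mouse 11, whose adipocyte median lay within the control range, the Acvr1c difference in severe cachexia was -1.14 ± 0.17 (adjusted p = 0.000322). The part of fat cells in the Acvr1c result was not tested.

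Of 13 genes for ligand processing and extracellular binding, 1 was higher and 4 lower in moderate cachexia, and 1 was higher and 2 lower in severe cachexia. Ltbp4, which anchors latent TGF-beta in the matrix, fell in moderate (-1.12 ± 0.18, SE, adjusted p = 0.000673) and in severe cachexia (-1.54 ± 0.17, adjusted p = 9.89e-05). Igsf1 fell in both stages too (-0.915 ± 0.149, adjusted p = 0.000673, and -1.101 ± 0.138, adjusted p = 0.000197). The secreted BMP antagonist Nog rose in severe cachexia by 1.20 ± 0.23 (adjusted p = 0.00209), and its difference in moderate cachexia was 0.29 ± 0.24 (adjusted p = 0.368). The stages differed in Nog (0.91, adjusted p = 0.0415). Chrd, which encodes another secreted BMP antagonist, rose in moderate cachexia by 0.77 ± 0.23 (adjusted p = 0.0175).

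Of 18 other SMADs and SMAD regulators listed, 12 were tested, Smad4 not being among the 12. Of those tested, 4 were higher and 2 lower in moderate cachexia, and 3 were higher and 3 lower in severe cachexia. Tgif1, a corepressor that binds SMAD2 and SMAD3, rose by 3.07 ± 0.25 (SE, adjusted p = 6.05e-06) in moderate and by 1.79 ± 0.23 (adjusted p = 0.000218) in severe cachexia. The ubiquitin ligase Nedd4l, which acts on SMAD2 and SMAD3, rose by 1.31 ± 0.19 (adjusted p = 0.000375) and by 0.54 ± 0.18 (adjusted p = 0.0335), although without severe mouse 11 the latter was 0.46 and did not pass the test (adjusted p = 0.0621). Both were lower in severe than in moderate cachexia, Tgif1 by a difference of -1.28 (adjusted p = 0.0106) and Nedd4l by one of -0.77 (adjusted p = 0.0329). Smad1, which carries BMP signals, rose by 0.38 ± 0.12 and by 0.54 ± 0.11. Tob1 went the other way and fell in both stages (-0.855 ± 0.207, adjusted p = 0.00604, and -0.659 ± 0.192, adjusted p = 0.0191).

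In the BMP branch, 1 of 13 genes was higher and 5 were lower in moderate cachexia, and 1 was higher and 6 lower in severe cachexia. The BMP-responsive gene Id1 rose by 0.85 ± 0.17 (SE, adjusted p = 0.00232) and by 0.71 ± 0.16 (adjusted p = 0.00533). Of the other Id genes in this list, Id2 fell in both stages (-0.715 ± 0.227, adjusted p = 0.0235, and -0.619 ± 0.210, adjusted p = 0.0368). Id3 and Id4 were called in neither stage. The BMP co-receptor Rgma fell in both stages (-1.27 ± 0.22, adjusted p = 0.00106, and -0.79 ± 0.21, adjusted p = 0.0118), and the receptor Bmpr1a fell in moderate cachexia by 0.73 ± 0.20 (adjusted p = 0.0115).

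Of 8 genes known to respond to SMAD2 and SMAD3, none was higher and 3 were lower in moderate cachexia, and 1 was higher and 5 were lower in severe cachexia. Over all genes, 22.2% were lower in moderate and 17.8% in severe cachexia. The collagen gene Col1a1 fell in moderate (-2.24 ± 0.50, SE, adjusted p = 0.00401) and in severe cachexia (-2.24 ± 0.46, adjusted p = 0.00353). Col1a2 fell as well (-0.98 ± 0.34, adjusted p = 0.0357, and -1.14 ± 0.32, adjusted p = 0.0157). Ankrd1, a stretch-responsive muscle gene, rose in severe cachexia by 2.44 ± 0.50 (adjusted p = 0.00319) and differed by 0.13 ± 0.54 in moderate cachexia (adjusted p = 0.863). Tendon markers moved with the collagens, 4 of 6 being lower in moderate and 6 of 6 in severe cachexia, with summed signals of 2126 to 2820 in controls, 468 to 1841 in moderate and 391 to 736 in severe mice. Of 8 fibroblast markers, which include both collagens, 4 were lower in each stage. Without severe mouse 11, the differences in severe cachexia were -2.67 ± 0.39 for Col1a1 (adjusted p = 0.000266) and -1.41 ± 0.28 for Col1a2 (adjusted p = 0.00169). The part of these cells in the collagen result was not tested.

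**Figure D5:**
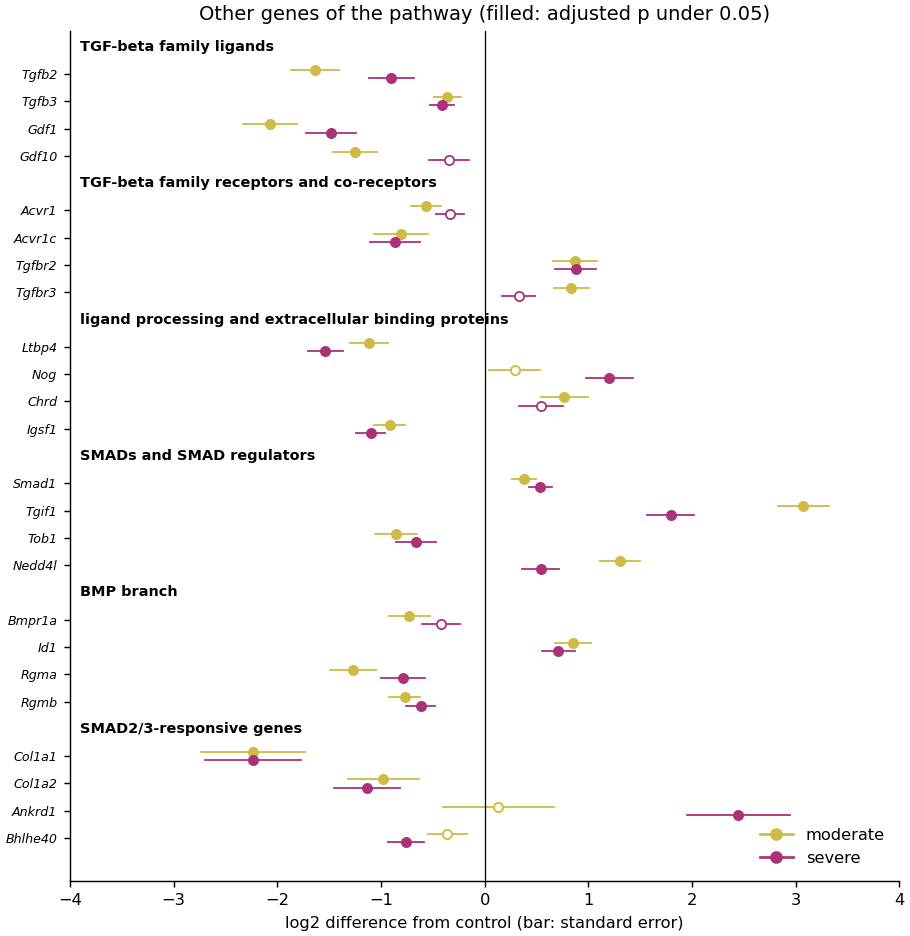
Log2 difference from control of up to 4 genes per list, those with the smallest adjusted p in any comparison, in moderate and severe cachexia; bars are standard errors and filled points have an adjusted p under 0.05. Tgif1 lies farthest to the right (3.07 in moderate cachexia) and Col1a1 farthest to the left (-2.24 in both stages).

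Macrophage markers were higher in both stages, 6 of 9 in each, with summed signals of 2232 to 2637 in controls, 3728 to 4793 in moderate and 3549 to 7956 in severe mice. Of the 12 muscle fiber markers none was called in moderate cachexia, and in severe cachexia Des was higher (0.44, adjusted p = 0.00644) and Mb lower (-0.73, adjusted p = 0.0121). These markers were among the brightest on the arrays, with signals of 8268 to 27730 where the highest of all was 29977.5. The part of infiltrating cells in the member results was not tested.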

How the data were processed

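Quadriceps RNA was amplified, labelled with biotin and hybridized to 11 arrays. Per the labels and the study's methods, the authors read signals with BeadStudio. The deposited intensity values had already been background-subtracted (28.5% lay below 0) and quantile-normalized (values of one rank differed between arrays by at most 0.319), although described as non-normalized. A deposited detection p-value stood beside each signal. The deposited ratio table held signals floored at 1 over the control median and was used as an alternative. Columns named Control, Early and Late give the group only, and Late was read as severe cachexia.

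Signals were normalized again with limma's neqc (limma 3.58.1, R 4.3.3; offset 16) to log2 values. A probe entered the tests if all arrays of 1 or more groups detected it at p under 0.01 (18837 probes did), and each gene was read from its brightest such probe. The 3 groups were fitted together with lmFit and eBayes with an intensity trend, and p-values were adjusted over all genes by Benjamini-Hochberg. The procedure was tested on simulated data. Of the probes, 34885 had 1 gene name, 18 had several and 10378 had none. Besides the members, the text names per pathway list up to 4 genes with the smallest adjusted p. Members and lists were chosen with earlier results of these data known. The number of arrays limits the precision. Labels and methods differ on the vendor and the injection site. Alternatives were the deposited ratios, the methods' t-test and a replicate block. Other background corrections, scalings, filters and probe rules were also run, and each mouse was left out in turn.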

Additional observations from a re-analysis of the deposited data

Results flagged for a closer look

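On the dimmest Acvr1b probe, ILMN_2740103, control mouse 4 read 5.76 on the log2 scale, and the nearest other control read 5.13. This gap was 0.894 of the group's range, above the critical value of Dixon's test for 4 samples. In all, 18 such groups were examined, and chance alone marks about 1 in 20.

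The effect of cachexia on Acvr1b differed between the stages. Its effect in severe minus that in moderate cachexia was -1.29 on the log2 scale by the direct test between the stages with limma (adjusted p = 0.0052), the effect being 1.45 in moderate and 0.16 in severe cachexia.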

How the results depend on the processing

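Of 414 member values recomputed under the alternatives, 394 kept their direction and their side of the threshold, 4 lost the call, 1 gained it and 15 changed sign, none of the last being a called value. Many of these could not change direction. The filters, the fit without a trend, the t-test and the arrays compared alone left each log2 difference as it was. So did leaving out a mouse of the group not compared. The deposited ratios gave the same differences as floored signals without background correction. The number of members called in moderate against control was 2, with a range of 1 to 2 over the mice left out in turn; it was 0 in severe against control, with a range of 0 to 0, and 1 in severe against moderate, with a range of 1 to 2. The methods' t-test after Benjamini-Hochberg adjustment called 0 members between the stages. The replicate block, fitted on the deposited ratios, called 1 member in moderate against control, with Smad3 at -1.07 (adjusted p = 0.0599), and changed no other member's call. Deviations of same-numbered samples correlated between -0.35 and 0.13. With so few pairs, these values cannot show whether the labels' numbers pair the samples. The Acvr1b difference in severe against control was -0.13 with the mean of the probes. Sign changes with a mouse left out fell within -0.17 to 0.15 for Fst and -0.058 to 0.35 for Acvr2a in moderate against control, -0.36 to 0.18 for Smad3 in severe against control, and -0.20 to 0.20 for Acvr2a, -0.23 to 0.075 for Acvr2b and -0.17 to 0.076 for Smad2 between the stages. Over all genes, the 707 called between the stages became 409 with no filter on detection, 208 with the arrays compared alone, 7 with the methods' t-test after adjustment, 249 with the replicate block, 195, 390 and 281 on leaving out moderate mouse 5, moderate mouse 12 or severe mouse 16. The 4162 called in moderate against control became 2582 without moderate mouse 5. At an unadjusted p under 0.05 with a fold of at least 2, the methods' t-test called 954, 660 and 146 genes in moderate against control, severe against control (3376 by limma) and severe against moderate. Of the 24 pathway genes named beside the members, 22 kept their direction and side of the threshold in severe against control without severe mouse 11, an alternative chosen after seeing the data, while Nedd4l lost the call and Chrd gained it (0.60, adjusted p = 0.0478). The cause of these changes was not tested. Signals under 11.9 to 15.0 were below detection, which left Mstn, Fstl3 and Smad7 without a level.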
